A study of Mus musculus with 17 samples.

Results

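Selenoproteins are proteins that carry the amino acid selenocysteine, and 10 of their genes were followed here across the pancreatic islets of mice that lack Men1, Rbp2 or both in insulin-expressing cells. The genes were Dio1, Selenop, Selenom, Selenok, Selenos, Gpx1, Gpx2, Gpx3, Gpx4 and Txnrd1, out of 19938 genes measured, and 11 of the 35512 probe sets name one of them alone. They were chosen by name from results in which their levels in these same arrays were already known, so their own levels and differences are given as a description with no p-value. The study profiled islets from mice aged 2 months on 17 Affymetrix arrays in 5 groups. Men1 Rbp2 RIP-Cre islets (4 arrays, called the double knockout) carry floxed alleles of both genes and the RIP-Cre transgene, Rbp2 RIP-Cre islets (4 arrays) carry floxed Rbp2 and RIP-Cre, and Men1 RIP-Cre islets (3 arrays) carry floxed Men1 and RIP-Cre. The controls were RIP-Cre islets (3 arrays), which share the transgene with all knockout groups, and wt islets (3 arrays), which lack it. In RIP-Cre mice the rat insulin promoter drives Cre recombinase, so deletion is directed to beta cells while the other cells of an islet keep the floxed genes. Men1 encodes menin, a tumour suppressor of endocrine tissue, and Rbp2 is the older name of Kdm5a, a demethylase of histone H3 lysine 4. Within a group the labels only count the arrays off as repeats, without naming separate animals, so the tests reflect only how far these arrays scatter, which may be technical. Whole islets were measured, and fewer cells of a type cannot be told apart from less RNA per cell.

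Selenocysteine is inserted at a UGA codon that would otherwise end translation, with the help of a stem-loop in the 3′ part of the mRNA and a dedicated elongation factor. Most of the proteins made this way are oxidoreductases: the glutathione peroxidases remove peroxides, the thioredoxin reductases keep thioredoxin reduced, and the iodothyronine deiodinases activate or inactivate thyroid hormone. Selenop is the secreted protein that carries selenium in plasma, and several small selenoproteins sit in the endoplasmic reticulum, where a beta cell folds its proinsulin. Dio1 is best known from liver, kidney and thyroid, where it removes iodine from thyroxine. All 10 members are protein-coding genes. On GRCm38.p6 the deiodinase and the carrier lie with Dio1 at chr4:107291465-107307168 and Selenop at chr15:3270767-3280510. The reticulum members lie with Selenom at chr11:3514684-3517351, Selenok at chr14:29968380-29975074 and Selenos at chr7:66079649-66089405. The peroxidases and the reductase lie with Gpx1 at chr9:108339080-108340342, Gpx2 at chr12:76792335-76795554, Gpx3 at chr11:54902854-54910387, Gpx4 at chr10:80047166-80056439 and Txnrd1 at chr10:82833951-82897724.

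The promoter windows of the 3 members whose levels separated knockout from control arrays most clearly, or that followed Dio1, are shown because they are the sequence context of these genes. Each window runs from 250 bases before to 50 bases after the annotated start, 5′ to 3′ on the gene's strand, in RefSeq on GRCm38.p6. Dio1 lies on the minus strand (chr4:107307119-107307418), Selenop on the plus strand (chr15:3270517-3270816, the first of its 3 windows) and Gpx2 on the minus strand (chr12:76795505-76795804). Capitals mark a match to a searched motif.
Dio1: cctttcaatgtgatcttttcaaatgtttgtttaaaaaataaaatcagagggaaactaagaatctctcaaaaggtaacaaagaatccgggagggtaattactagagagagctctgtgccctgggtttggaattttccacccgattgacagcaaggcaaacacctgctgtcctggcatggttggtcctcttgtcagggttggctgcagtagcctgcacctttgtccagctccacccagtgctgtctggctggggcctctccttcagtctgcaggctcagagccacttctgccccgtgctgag
Selenop: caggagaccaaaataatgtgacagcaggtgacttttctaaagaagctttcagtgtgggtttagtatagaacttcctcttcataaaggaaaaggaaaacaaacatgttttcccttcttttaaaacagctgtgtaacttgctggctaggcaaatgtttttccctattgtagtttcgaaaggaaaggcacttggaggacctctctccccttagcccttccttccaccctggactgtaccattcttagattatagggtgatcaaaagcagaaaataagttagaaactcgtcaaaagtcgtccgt
Gpx2: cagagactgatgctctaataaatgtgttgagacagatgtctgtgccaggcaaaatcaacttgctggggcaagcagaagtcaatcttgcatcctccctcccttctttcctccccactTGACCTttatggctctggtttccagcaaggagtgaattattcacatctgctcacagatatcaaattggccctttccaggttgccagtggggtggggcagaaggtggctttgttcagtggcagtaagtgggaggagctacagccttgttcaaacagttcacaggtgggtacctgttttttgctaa
The motifs searched, on both strands, were AGGTCA, the hexamer bound by thyroid hormone receptors and other nuclear receptors, TGACNNNGC, the core of the antioxidant response element, and CCGCCC, an element bound by the ARID domain of Kdm5a. AGGTCA occurred in 16.3% of all windows of this length, TGACNNNGC in 12.4% and CCGCCC in 35.7%. The Dio1 and Selenop windows held none of them. The Gpx2 window held AGGTCA once, on the opposite strand, where it reads as the capitals at position 117 from the 5′ end. Such a match is a description of the letters and not a binding site.

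Men1 was low in the groups labelled as lacking it. It lay at 8.46 to 8.87 on the log2 scale in double knockout islets and at 8.14 to 8.43 in Men1 RIP-Cre islets, below the 9.31 to 9.49 of RIP-Cre islets and the 9.25 to 9.45 of wt islets. In Rbp2 RIP-Cre islets Men1 lay at 10.05 to 10.24, above every other array. Kdm5a passed the test in no comparison, and where its probes lie relative to the deleted exon was not analysed here, so Kdm5a does not check the Rbp2 labels. The deposited values were left as they were, and the median of all genes differed between groups: array medians were 7.88 to 7.95 in double knockout islets, 7.82 to 7.98 in Rbp2 RIP-Cre islets, 7.86 to 7.87 in Men1 RIP-Cre islets, 7.97 to 8.16 in RIP-Cre islets and 7.99 to 8.10 in wt islets. The median difference of all genes against RIP-Cre was -0.13 in Rbp2 RIP-Cre islets, -0.23 in Men1 RIP-Cre islets and -0.15 in double knockout islets, and it ran with level, with a median of -0.27 in the dimmest decile of genes and 0.18 in the brightest in Rbp2 RIP-Cre islets. Of the 10 members, 7 lie in the brightest 2 deciles. Beta cell markers, averaged over 11 genes, lay at 12.45 to 12.60 in double knockout islets, 12.34 to 12.52 in Rbp2 RIP-Cre islets, 12.61 to 12.67 in Men1 RIP-Cre islets, 11.76 to 12.28 in RIP-Cre islets and 11.95 to 12.27 in wt islets. The knockout arrays were all above the control arrays on this average, and 3, 7 and 7 of the 11 markers were called higher in Rbp2 RIP-Cre, Men1 RIP-Cre and double knockout islets against RIP-Cre. Acinar markers varied widely between arrays, with averages over 11 genes of 7.91 to 10.08, and 1 of them was called in the same comparisons, lower in Men1 RIP-Cre islets. Of the markers of other cells, Men1 RIP-Cre islets had 3 of 3 Schwann cell, 4 of 7 other islet endocrine, 3 of 5 duct and 3 of 8 endothelial markers called lower against RIP-Cre. Double knockout islets had 3 of 3 Schwann cell, 3 of 7 other endocrine, 1 of 5 duct and 3 of 8 endothelial markers called lower, and Rbp2 RIP-Cre islets had 1 of 5 duct markers called lower and 2 of 8 endothelial markers called higher. Men1 RIP-Cre islets also had 2 of 3 red blood cell markers lower and 1 of 4 lymphocyte markers higher. The lymphocyte count was the same in double knockout islets, and Rbp2 RIP-Cre islets had 1 of 7 mesenchymal markers higher. Of all 19938 genes, 1336 were called higher and 1336 lower in Rbp2 RIP-Cre islets against RIP-Cre. These counts were 3126 and 7534 in Men1 RIP-Cre islets, and 2600 and 4116 in double knockout islets. The part of these marker shifts in the results on the members was not tested.

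Dio1, the type 1 deiodinase that removes iodine from thyroxine, was higher in the islets that lack Rbp2 and not in those that lack Men1 alone. Its log2 level was 9.99, 10.22, 10.09 and 10.22 in double knockout islets and 10.22, 10.05, 10.07 and 10.10 in Rbp2 RIP-Cre islets. It was 8.10, 8.82 and 8.75 in Men1 RIP-Cre islets, 9.08, 8.97 and 8.34 in RIP-Cre islets, and 8.89, 9.82 and 8.93 in wt islets. All 8 arrays of the Rbp2-deficient groups lay above all 9 other arrays, and the nearest of those was wt array 2 at 9.82. Of all genes, 0.441% separated these 2 groups from the other 3 in the same way in either direction, and Dio1 was 1 of 10 members to do so. Its mean was 10.13 ± 0.11 in double knockout islets and 10.11 ± 0.08 in Rbp2 RIP-Cre islets (SD, n = 4 each), against 8.56 ± 0.40 in Men1 RIP-Cre islets, 8.80 ± 0.40 in RIP-Cre islets and 9.21 ± 0.53 in wt islets (SD, n = 3 each). The spread was about as wide within RIP-Cre and wt islets as the difference between them.

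Set against RIP-Cre islets, Dio1 differed by 1.31 (95% interval 0.85 to 1.78) in Rbp2 RIP-Cre islets, which is 2.49-fold, and by 1.33 (0.87 to 1.80) in double knockout islets. In Men1 RIP-Cre islets the difference from RIP-Cre was -0.24, with an interval of -0.73 to 0.25. Double knockout islets stood 1.57 (1.11 to 2.04) above Men1 RIP-Cre islets, or 2.98-fold. Between double knockout and Rbp2 RIP-Cre islets Dio1 differed by 0.02, with an interval of -0.41 to 0.45. RIP-Cre islets stood 0.42 below wt islets. Leaving out 1 array at a time gave Dio1 differences of 1.09 to 1.46 in Rbp2 RIP-Cre against RIP-Cre, and these describe the values that chose the gene. Without wt arrays 1 and 3 and RIP-Cre array 3, which had high medians and were left out as a setting chosen after seeing the data, the Rbp2 difference was 1.09. When the array median was held fixed, the difference from RIP-Cre was 0.90 in Rbp2 RIP-Cre islets and 0.87 in double knockout islets, and neither was called, while that of double knockout from Men1 RIP-Cre islets, 1.76, was. The Dio1 difference of Men1 RIP-Cre from RIP-Cre islets was -0.88 in that fit and not called. Array medians differ between the groups, so here and below a call lost in that fit cannot separate array median from genotype. Without the 3 control arrays with high medians, Dio1 was called lower in Men1 RIP-Cre islets.

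**Figure D1:**
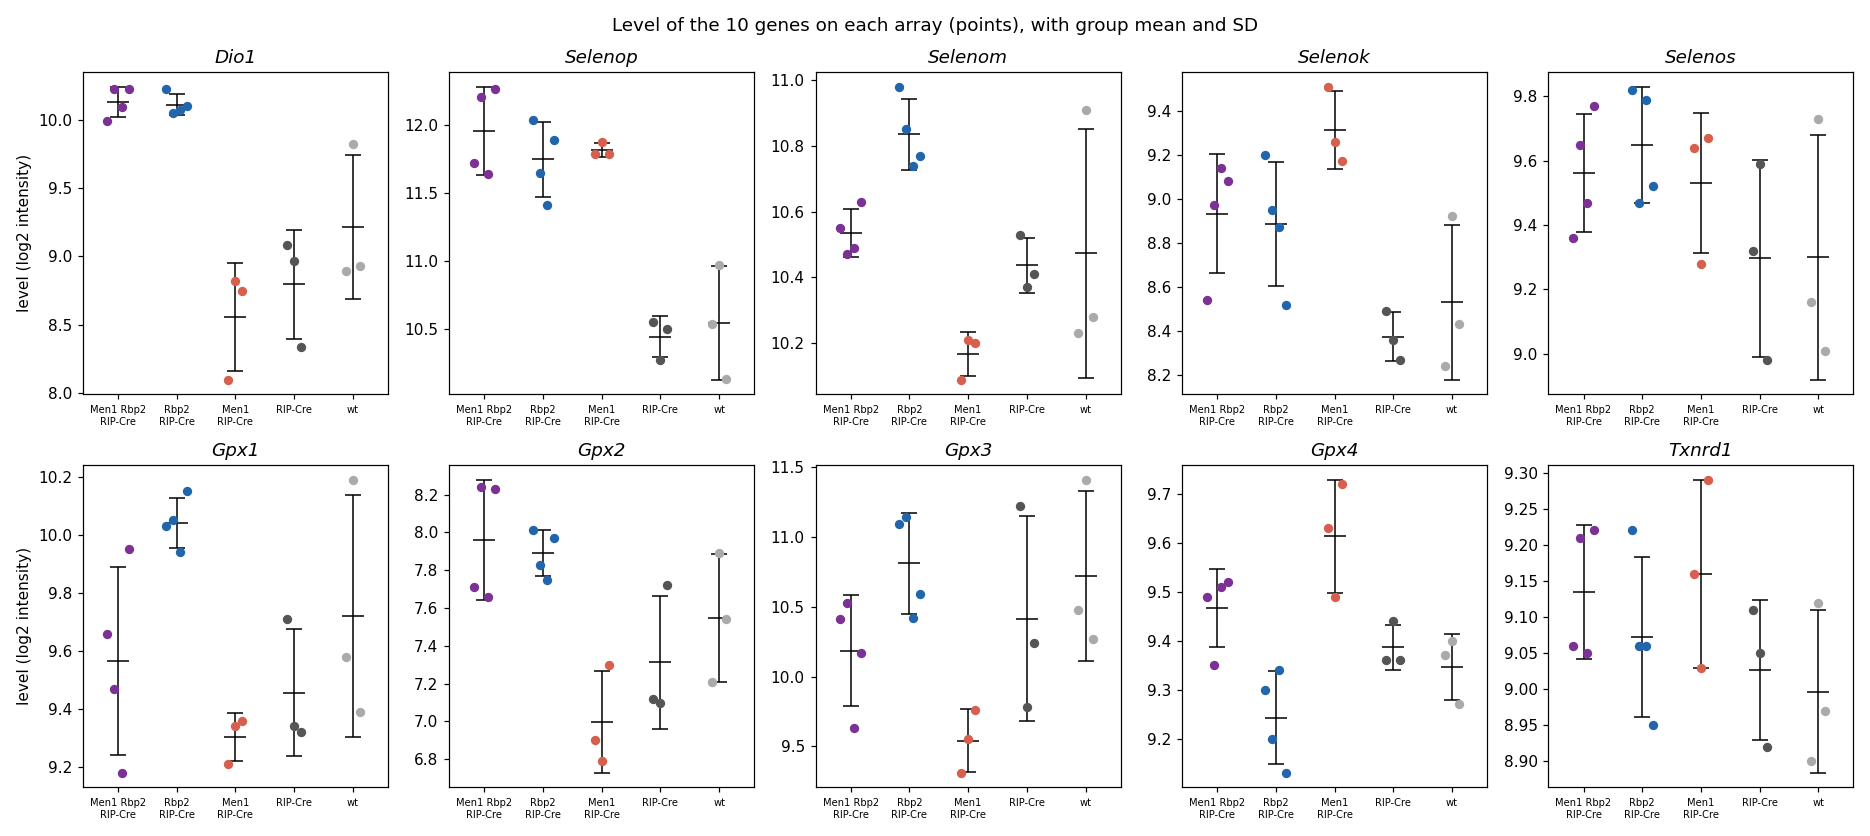
Log2 level of the 10 genes in each of the 17 arrays, grouped by genotype with the double knockout on the left, and with the group mean and SD. Dio1 was high in all arrays of the 2 Rbp2-deficient groups, between 9.99 and 10.22, and Selenop in all arrays of the 3 knockout groups, between 11.41 and 12.27.

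Selenop, the selenium carrier of plasma, which beta cells also make, was higher in all 3 knockout groups. Its log2 level was 11.72, 12.21, 11.64 and 12.27 in double knockout islets, 12.04, 11.65, 11.41 and 11.89 in Rbp2 RIP-Cre islets, and 11.79, 11.88 and 11.79 in Men1 RIP-Cre islets. It was 10.55, 10.27 and 10.50 in RIP-Cre islets and 10.53, 10.97 and 10.13 in wt islets. Every knockout array lay above every control array, the lowest being Rbp2 RIP-Cre array 3 at 11.41 and the highest control wt array 2 at 10.97. Of all genes, 6.97% separated the knockout groups from the controls without overlap in either direction, 701 genes above and 689 below. Selenop was 1 of 10 members to do so. Against RIP-Cre islets Selenop differed by 1.31 (95% interval 0.90 to 1.72) in Rbp2 RIP-Cre islets, 1.38 (0.94 to 1.82) in Men1 RIP-Cre islets and 1.52 (1.11 to 1.93) in double knockout islets, which are 2.48-fold, 2.60-fold and 2.87-fold. These Selenop differences at a fixed array median were 1.04, 0.96 and 1.22, and the first 2 were not called.

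Selenop differed less with Rbp2 loss in islets that also lack Men1. Double knockout islets stood 0.14 (-0.27 to 0.55) above Men1 RIP-Cre islets, and Rbp2 RIP-Cre islets 1.31 above RIP-Cre islets. The difference between these differences, the interaction of the 2 alleles, was -1.17 (-1.75 to -0.59). The interaction call was lost in 9 of the 17 fits that each leave out 1 array, over a range of -1.28 to -1.06 (those without wt array 1, RIP-Cre array 3, any Men1 RIP-Cre array, Rbp2 RIP-Cre arrays 1 or 2, or double knockout arrays 1 or 3), and it was -0.78, not called, once array medians entered the fit. The 12 macrophage markers averaged 7.68 to 8.08 in double knockout arrays, 7.53 to 7.65 in Rbp2 RIP-Cre arrays, 7.64 to 7.87 in Men1 RIP-Cre arrays, 7.59 to 7.66 in RIP-Cre arrays and 7.62 to 8.15 in wt arrays. Of these markers, 3 were called higher and 2 lower in Men1 RIP-Cre islets, 3 higher and 1 lower in double knockout islets and none in Rbp2 RIP-Cre islets, each against RIP-Cre. Of all genes, 53.5%, 33.7% and 13.4% were called in these comparisons, in the same order. The part of the macrophage markers in the Selenop values was not tested.

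**Figure D2:**
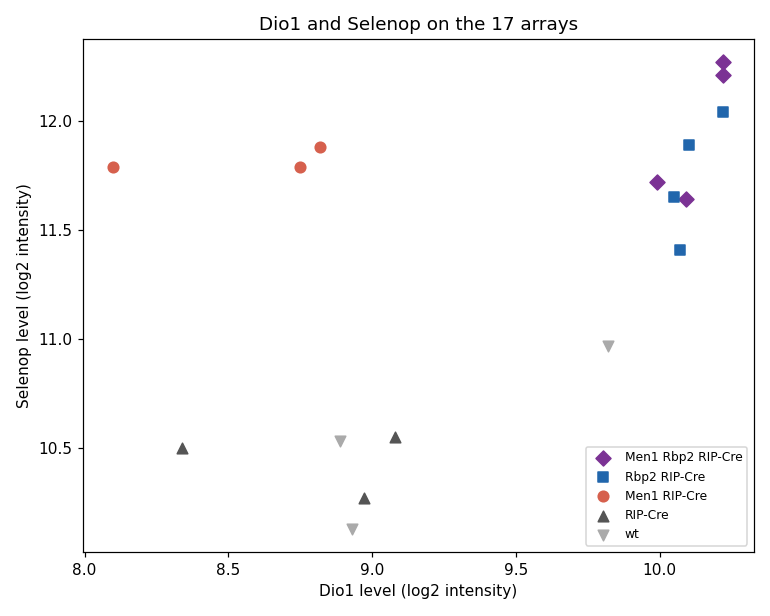
Log2 level of Selenop against log2 level of Dio1 in the 17 arrays, coloured by genotype. The 8 arrays of the Rbp2-deficient groups sit at high Dio1 and high Selenop, Men1 RIP-Cre arrays at low Dio1 and high Selenop, and control arrays at low Selenop.

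Over the 17 arrays Dio1 and Selenop correlated at r = 0.51, and at 0.48 after the group means were removed. Ranked by the Pearson correlation of log2 level over the same arrays, the genes most like Dio1 were Jtb (r = 0.94), Ccnd1 and Kcnk16 (0.90 each), Mtmr2 (0.90) and Jam2 (0.89). Ccnd1 encodes cyclin D1, which drives cells past the G1 checkpoint, and Kcnk16 encodes the islet potassium channel TALK-1. The genes most like Selenop were Slc25a1 (0.98), the mitochondrial citrate carrier, Atraid (0.98), Pip4k2c (0.98), Tgoln1 (0.98), a protein of the trans-Golgi network, and Slc35f6 (0.97). These correlations run over arrays that share the group differences, so they describe a common pattern and carry no p-value.

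The members that sit in the endoplasmic reticulum are Selenok, Selenos and Selenom. Selenok, a membrane protein of the reticulum that works with the DHHC6 acyltransferase and takes part in protein degradation there, lay at 8.54, 8.97, 9.14 and 9.08 in double knockout islets and 9.20, 8.95, 8.87 and 8.52 in Rbp2 RIP-Cre islets. It was 9.51, 9.26 and 9.17 in Men1 RIP-Cre islets, 8.49, 8.36 and 8.27 in RIP-Cre islets, and 8.24, 8.92 and 8.43 in wt islets. All knockout arrays lay above all RIP-Cre arrays, and the mean was highest in Men1 RIP-Cre islets, but wt array 2 lay within their range. Of all genes, 63.4%, 39.1% and 27% did not overlap with RIP-Cre, in either direction, in Men1 RIP-Cre, double knockout and Rbp2 RIP-Cre islets. The Selenok difference from RIP-Cre was 0.94 (0.54 to 1.34) in Men1 RIP-Cre islets, 0.56 (0.18 to 0.94) in double knockout islets and 0.51 (0.13 to 0.89) in Rbp2 RIP-Cre islets, and the first 2 were called. The Selenok differences at a fixed array median were 0.46, 0.21 and 0.21 in the same order, and none was called. The double knockout call was lost without RIP-Cre array 3 or any 1 of double knockout arrays 2, 3 and 4. Selenos, a partner of the degradation machinery of the reticulum, differed from RIP-Cre by 0.23 to 0.35 in the 3 knockout groups and no interval excluded 0. With the array median held fixed these Selenos differences were -0.34 to -0.01, so they have no settled direction. Selenom, a small thioredoxin-like protein of the reticulum lumen, lay at 10.47 to 10.63 in double knockout islets, 10.74 to 10.98 in Rbp2 RIP-Cre islets and 10.09 to 10.21 in Men1 RIP-Cre islets, and RIP-Cre arrays lay between the last 2 groups at 10.37 to 10.53. Its difference from RIP-Cre was 0.40 (0.13 to 0.67) in Rbp2 RIP-Cre islets and -0.27 (-0.56 to 0.02) in Men1 RIP-Cre islets, and it was called in no comparison. The wt arrays lay at 10.23, 10.91 and 10.28, and array 2 among them lay within the Rbp2 RIP-Cre range. After cyclic loess normalization the Selenom difference was -0.46 and called in Men1 RIP-Cre islets and 0.22 in Rbp2 RIP-Cre islets.

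The glutathione peroxidases reduce peroxides with glutathione and showed no common order of groups. Gpx2, the form best known from intestinal epithelium, followed the order of Dio1: it was 7.71, 8.24, 7.66 and 8.23 in double knockout islets, 8.01, 7.83, 7.75 and 7.97 in Rbp2 RIP-Cre islets, 6.90, 6.79 and 7.30 in Men1 RIP-Cre islets, 7.12, 7.10 and 7.72 in RIP-Cre islets, and 7.21, 7.89 and 7.54 in wt islets. All double knockout arrays lay above all Men1 RIP-Cre arrays, while RIP-Cre array 3 and wt array 2 lay within the range of the Rbp2-deficient groups. Of all genes, 20.5% did not overlap between double knockout and Men1 RIP-Cre islets, in either direction. Double knockout islets stood 0.96 (0.55 to 1.38) above Men1 RIP-Cre islets and 0.65 (0.23 to 1.06) above RIP-Cre islets, and Rbp2 RIP-Cre islets 0.58 (0.16 to 0.99) above RIP-Cre islets. Of these, the first 2 were called, and each lost its call in 4 of the 17 fits that leave out 1 array. These were double knockout arrays 2 and 4 for both, with Men1 RIP-Cre arrays 1 and 2 for the first and RIP-Cre arrays 1 and 2 for the second. The Gpx2 call against RIP-Cre was lost at a fixed array median, at 0.60, and after cyclic loess normalization Gpx2 was also called in Rbp2 RIP-Cre islets, at 0.74.

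Gpx1, the cytosolic enzyme, was 9.66, 9.47, 9.18 and 9.95 in double knockout islets, 10.03, 10.05, 9.94 and 10.15 in Rbp2 RIP-Cre islets and 9.71, 9.34 and 9.32 in RIP-Cre islets, with wt array 2 at 10.19. Rbp2 RIP-Cre islets stood 0.59 (0.21 to 0.96) above RIP-Cre islets and were called, but the call was lost in 8 of the 17 leave-one-out fits (RIP-Cre arrays 2 and 3, all Men1 RIP-Cre arrays, and Rbp2 RIP-Cre arrays 1, 2 and 4) and after cyclic loess normalization, where the difference was 0.51. Gpx3, the secreted plasma enzyme, had the widest spread of the members in RIP-Cre arrays, and lay at 9.31, 9.55 and 9.76 in Men1 RIP-Cre islets, against 11.22, 9.78 and 10.24 in RIP-Cre islets. Its difference in Men1 RIP-Cre islets, -0.87 (-1.60 to -0.15), was called and lost in 5 of 17 leave-one-out fits (RIP-Cre arrays 1 and 3 and all Men1 RIP-Cre arrays), over a range of -1.19 to -0.47, the last without RIP-Cre array 1. The Gpx3 difference at a fixed array median was -1.34 and not called. Gpx4, which protects membrane lipids from peroxidation, had 2 probe sets that correlated at r = 0.97 over the 17 arrays but gave different sizes of change. By its brighter probe set Gpx4 averaged 9.61 ± 0.12 in Men1 RIP-Cre islets and 9.39 ± 0.05 in RIP-Cre islets (SD, n = 3 each), a difference of 0.23 (0.04 to 0.41) that was called and lost its call in 4 of 17 leave-one-out fits (arrays 1 and 3 of both groups). The other Gpx4 probe set gave 0.15 (SE 0.088), and by the brighter one the difference was 0.19 after cyclic loess normalization and 0.16 with the array median held fixed, neither of them called. Txnrd1, the cytosolic thioredoxin reductase, lay at 8.90 to 9.29 on all 17 arrays and differed from RIP-Cre by 0.05 to 0.13 in the 3 knockout groups, or by -0.10 to -0.06 with the array median held fixed.

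**Figure D3:**
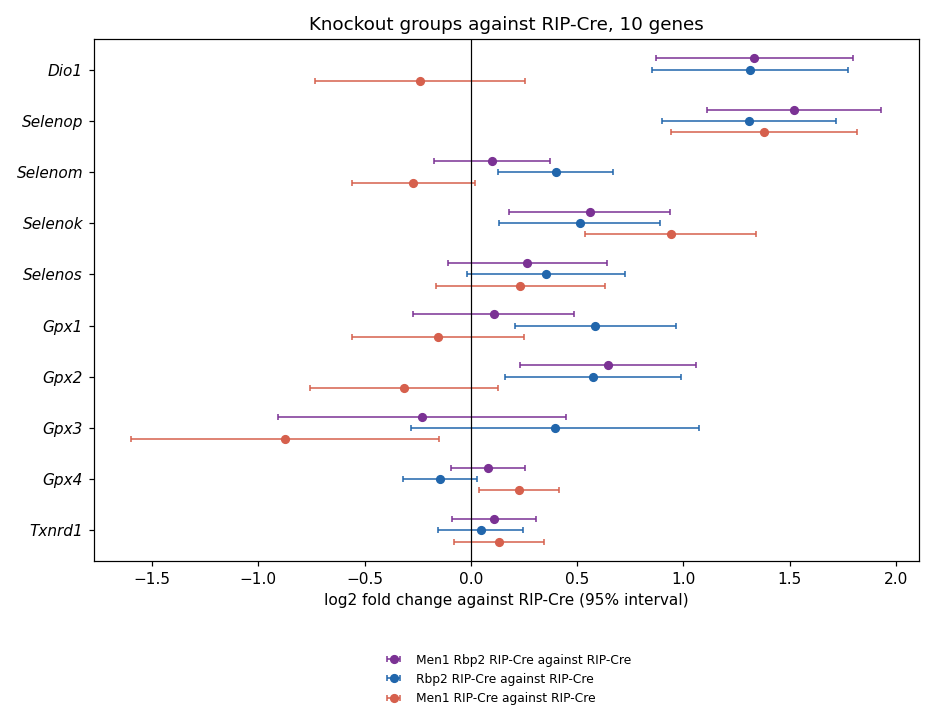
Difference in log2 level of the 10 genes in each knockout group against RIP-Cre islets, as points with 95% intervals from the linear model. Dio1 stands at 1.31 and 1.33 in the Rbp2-deficient groups against RIP-Cre and Selenop at 1.31 to 1.52 in all 3 knockout groups.

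Across the members, the calls can be read only against the share of all genes called at an adjusted p below 0.05 in limma. In Rbp2 RIP-Cre against RIP-Cre islets 13.4% of all genes were called, and Dio1, Selenop and Gpx1 were called, all higher. In Men1 RIP-Cre against RIP-Cre islets 53.5% were called, and of the members Selenop, Selenok and Gpx4 were called higher and Gpx3 lower. In double knockout against RIP-Cre islets 33.7% were called, and Dio1, Selenop, Selenok and Gpx2 were called, all higher. In double knockout against Men1 RIP-Cre islets 1.67% were called, with Dio1 and Gpx2 higher, and against Rbp2 RIP-Cre islets 1.2% were called, with no member. The interaction was called for 3.39% of genes and for Selenop, as lower. In RIP-Cre against wt islets limma called 0% of genes and no member, although 552 genes had an unadjusted p below 0.05. The members' median difference was 0.46 in Rbp2 RIP-Cre against RIP-Cre islets, where that of all genes was -0.13, and -0.01 in Men1 RIP-Cre against RIP-Cre islets, where that of all genes was -0.23. In double knockout against RIP-Cre islets it was 0.19, and that of all genes -0.15. Most members are bright, and the medians of the brightest 2 deciles were 0.06 and 0.18 in Rbp2 RIP-Cre islets. They were 0.06 and 0.20 in Men1 RIP-Cre islets, and 0.07 and 0.21 in double knockout islets. The choice of members used these contrasts, so nothing is read from the counts. Array 2 of wt was the highest of the 3 wt arrays for all 10 members by their brightest probe sets, against 28.7% of all genes. By the other Gpx4 probe set wt array 1 was higher, at 9.39 against 9.35 in wt array 2.

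The other 14 mouse selenoprotein genes that were tested were not among the members, and the list was chosen with earlier results of these data known. In limma, 2 rose and 1 fell in Rbp2 RIP-Cre islets, 5 rose and 2 fell in Men1 RIP-Cre islets, and 5 rose and 1 fell in double knockout islets, each against RIP-Cre, beside the 13.4%, 53.5% and 33.7% of all genes called. Their median differences were 0.07, 0.04 and 0.07, against -0.13, -0.23 and -0.15 for all genes. None of the 14 was called in Rbp2 RIP-Cre islets without RIP-Cre array 3 or without Rbp2 RIP-Cre array 1. Selenof, a chaperone partner of the endoplasmic reticulum, was 11.71 ± 0.49 in double knockout islets and 11.53 ± 0.31 in Rbp2 RIP-Cre islets (SD, n = 4 each), 11.90 ± 0.14 in Men1 RIP-Cre islets and 10.50 ± 0.38 in RIP-Cre islets (SD, n = 3 each), and it rose in all 3 knockout groups, by 1.03 (adjusted p = 0.0262), 1.21 (0.0051) and 1.40 (0.00164) for Rbp2 RIP-Cre, double knockout and Men1 RIP-Cre islets. Selenot, a thioredoxin-like protein of the reticulum that is high in endocrine cells, rose by 1.47 (adjusted p = 0.000411) in Men1 RIP-Cre islets, 1.31 (0.00168) in double knockout islets and 0.84 (0.0271) in Rbp2 RIP-Cre islets. In all these comparisons every knockout array lay above every RIP-Cre array for both genes. Of all genes, 27% did not overlap with RIP-Cre, in either direction, in Rbp2 RIP-Cre islets. The share was 63.4% in Men1 RIP-Cre islets and 39.1% in double knockout islets. None of the Selenof and Selenot calls was kept with the array median held fixed.

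Selenow, a small thioredoxin-like protein known from muscle, rose by 0.76 (adjusted p = 0.00031) in Men1 RIP-Cre islets and by 0.74 (0.000767) in double knockout islets, and the double knockout stood 0.44 (0.0378) above Rbp2 RIP-Cre islets. In this last comparison none of the 14 genes was called in 11 of the 17 fits that leave out 1 array (wt array 1, all Men1 RIP-Cre arrays, Rbp2 RIP-Cre arrays 2, 3 and 4, and all double knockout arrays), nor when only the groups compared were fitted. Selenoi, an enzyme of phospholipid synthesis, rose by 0.77 (0.00079) in Men1 RIP-Cre islets and 0.49 (0.011) in double knockout islets. Sephs2, which makes the selenium donor for selenocysteine and is itself a selenoprotein, rose by 0.48 (0.0175) and 0.55 (0.012) in the same order of groups. Dio3, the deiodinase that inactivates thyroid hormone, fell by 0.52 (0.0479) in Rbp2 RIP-Cre islets, 0.62 (0.00975) in Men1 RIP-Cre islets and 0.66 (0.00936) in double knockout islets. Its level was low, at 5.91 to 7.05 in these 4 groups, and only the double knockout call was kept after cyclic loess normalization. Selenoh, a redox protein of the nucleolus, fell by 0.57 (0.0158) in Men1 RIP-Cre islets. Dio2, which activates thyroid hormone inside cells, stood at 6.47 to 7.21 and passed the test in no comparison, and the same held for Txnrd2, Txnrd3, Selenon, Selenoo, Selenov and Msrb1. With the array median held fixed, the Selenow calls of the double knockout were kept and the other calls of Selenow, Selenoi, Sephs2, Dio3 and Selenoh were not.

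**Figure D4:**
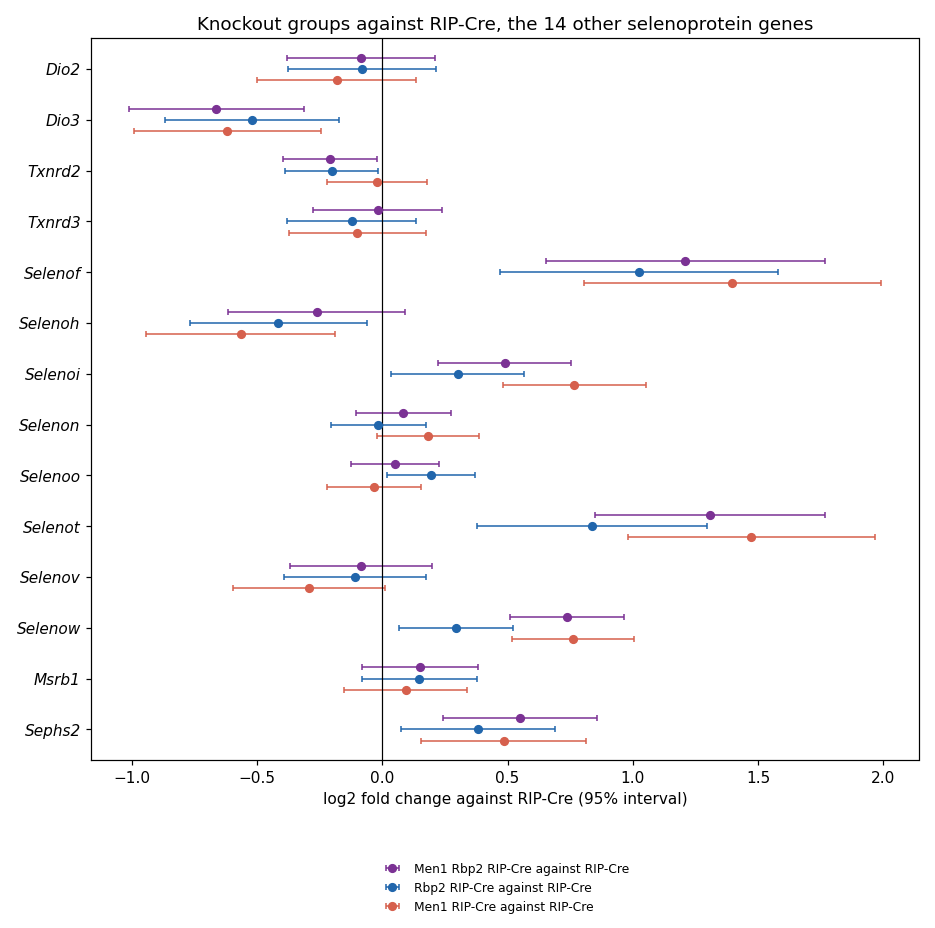
Difference in log2 level of the 14 other selenoprotein genes in each knockout group against RIP-Cre islets, as points with 95% intervals from the linear model. Selenof and Selenot stand at 0.84 to 1.47 above RIP-Cre in all 3 knockout groups, and Dio3 below it.

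Genes for making selenoproteins moved in both directions. Here and in the next lists, a gene is named only in comparisons where it was among the 2 strongest calls of its list in a direction. A named gene may differ in other groups too. Of 13 genes for selenocysteine insertion and selenium uptake, 2 rose in Rbp2 RIP-Cre islets, 3 rose and 3 fell in Men1 RIP-Cre islets, and 2 rose and 4 fell in double knockout islets, with median differences of -0.08, -0.02 and -0.10. These are 15.4%, 46.2% and 46.2% of the list, beside 13.4%, 53.5% and 33.7% of all genes called, whose medians were -0.13, -0.23 and -0.15. Sepsecs, which makes selenocysteine on its tRNA, rose in all 3 groups, by 0.45 (adjusted p = 0.0487), 0.59 (0.00639) and 0.88 (0.00153) in Rbp2 RIP-Cre, Men1 RIP-Cre and double knockout islets. Secisbp2, which binds the selenocysteine stem-loop, fell by 0.67 (0.00127) in Men1 RIP-Cre islets. Alkbh8, which modifies the selenocysteine tRNA, rose by 0.52 (0.00462) in Men1 RIP-Cre islets and 0.48 (0.00907) in double knockout islets. Eefsec, the elongation factor for selenocysteine, fell by 0.30 (0.0175) in double knockout islets, as did Pstk, which phosphorylates the seryl-tRNA, by 0.29 (0.0127). Sars, the seryl-tRNA synthetase, rose by 0.34 (0.042) in Rbp2 RIP-Cre islets, and Lrp2, an uptake receptor for Selenop in kidney, fell by 0.44 (0.00956) in Men1 RIP-Cre islets. After cyclic loess normalization no gene of this list was called in Rbp2 RIP-Cre islets, where Sepsecs stood at 0.30 and Sars at 0.12, and the calls of Lrp2 in Men1 RIP-Cre islets and Pstk in double knockout islets were lost.

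Of 15 tested genes of thyroid hormone transport, receptors and targets, 5 rose and 1 fell in Rbp2 RIP-Cre islets, 6 rose and 4 fell in Men1 RIP-Cre islets, and 5 rose and 2 fell in double knockout islets, with median differences of 0.07, -0.02 and 0.09. These are 40%, 66.7% and 46.7% of the list, beside 13.4%, 53.5% and 33.7% of all genes, whose medians were -0.13, -0.23 and -0.15. Ttr, the thyroxine carrier transthyretin, which islets express strongly, rose by 0.99 (adjusted p = 0.0192) in Rbp2 RIP-Cre islets. Slc7a5, an amino acid transporter that also carries thyroid hormones, rose by 0.71 (0.02) there, and the interaction was -0.98 (0.042). Slc7a8, another such transporter, rose by 1.21 (9.55e-05) in Men1 RIP-Cre islets and 0.97 (0.000749) in double knockout islets, with an interaction of -0.81 (0.0436). Slc16a10, a transporter of aromatic amino acids and thyroid hormone, rose by 0.97 (0.00371) in double knockout islets. Klf9, a target of the thyroid hormone receptor, rose by 0.89 (0.00154) in Men1 RIP-Cre islets, and the target Hr fell by 0.54 (0.0052) there and by 0.35 (0.0429) in double knockout islets, where Thrsp fell by 0.29 (0.0435). Klf9 averaged 10.15 in Rbp2 RIP-Cre islets and 10.21 in double knockout islets, against 9.49 in RIP-Cre islets. Slc7a5 averaged 11.42 in Men1 RIP-Cre islets and 11.14 in double knockout islets, against 10.67 in RIP-Cre islets. Slc16a10 averaged 10.72 in Rbp2 RIP-Cre islets and 10.62 in Men1 RIP-Cre islets, against 9.88 in RIP-Cre islets. Slco1c1, a thyroxine transporter, fell by 0.43 (0.0322) in Rbp2 RIP-Cre islets and 0.54 (0.00398) in Men1 RIP-Cre islets, with an interaction of 0.70 (0.0435). After cyclic loess normalization the Slco1c1 calls, the double knockout calls of Hr and Thrsp and the Slc7a8 interaction call were lost.

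Among called peroxide defence genes without selenium and called degradation genes of the endoplasmic reticulum, most rose. Of 23 peroxide and thiol defence genes, 6 rose and 1 fell in Rbp2 RIP-Cre islets, 10 rose and 2 fell in Men1 RIP-Cre islets, and 11 rose and 2 fell in double knockout islets, and after cyclic loess normalization 4 rose, 11 rose and 1 fell, and 7 rose. The first counts are 30.4%, 52.2% and 56.5% of the list, beside 13.4%, 53.5% and 33.7% of all genes. Their median differences were 0.25, 0.24 and 0.25, or 0.20, 0.30 and 0.31 after cyclic loess normalization. Prdx5 and Prdx6 were not analysed here. Prdx2, a peroxiredoxin, rose by 1.04 (adjusted p = 0.0151) in Rbp2 RIP-Cre islets and 1.13 (0.00318) in double knockout islets, and Prdx4, a peroxiredoxin of the reticulum, rose by 0.43 (0.0224) in the first of these. Prdx2 also averaged 11.37 in Men1 RIP-Cre islets, against 10.16 in RIP-Cre islets. Sod2, the mitochondrial superoxide dismutase, rose by 1.18 (0.00044) in Men1 RIP-Cre islets and 0.98 (0.00237) in double knockout islets, and Glrx, a glutaredoxin, rose by 1.18 (0.000308) in Men1 RIP-Cre islets. Txnip, the thioredoxin inhibitor, fell by 0.63 (0.0378) in Men1 RIP-Cre islets, and Sod3, the secreted superoxide dismutase, by 0.35 (0.0272) in double knockout islets. Gpx7, a peroxidase of the reticulum that uses cysteine in place of selenocysteine, fell by 0.44 (0.0467), 0.46 (0.0186) and 0.48 (0.0179) in Rbp2 RIP-Cre, Men1 RIP-Cre and double knockout islets. After cyclic loess normalization Gpx7 stood at -0.26, -0.15 and -0.28, called in none of the 3 groups, and the Sod3 call was lost. Of 11 genes of degradation from the reticulum, 5, 6 and 7 rose in the same 3 groups and none fell, with 2, 5 and 5 after cyclic loess normalization. The counts before that normalization are 45.5%, 54.5% and 63.6% of the list, beside the same shares of all genes. Median differences of this list were 0.38, 0.55 and 0.44, or 0.21, 0.33 and 0.34 after cyclic loess normalization. In the deposited values the medians of all genes were -0.13, -0.23 and -0.15. Those of the brightest decile were 0.18, 0.20 and 0.21. The Rbp2 RIP-Cre call of Derl3 was lost after that normalization. Derl3, a channel protein of that pathway, rose by 0.45 (0.0224), 0.77 (0.000336) and 0.79 (0.000583) in these groups, Derl1 rose by 0.60 (0.00457) in double knockout islets, Dnajb9 rose by 1.97 (0.00176) in Men1 RIP-Cre islets, and Hspa5, the main chaperone of the reticulum, rose by 0.84 (0.0171) in Rbp2 RIP-Cre islets. Hspa5 was also called, at 0.72, in both Men1 RIP-Cre and double knockout islets. Dnajb9 was called at 1.37 in Rbp2 RIP-Cre islets and 1.43 in double knockout islets, and Derl1 at 0.65 in Men1 RIP-Cre islets. With the array median held fixed, the calls of Derl3 and Slc7a8 in Men1 RIP-Cre and double knockout islets were kept, and those of the other genes named from these 4 lists were lost.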

How the data were processed

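Islet RNA, labelled with biotin as fragmented DNA per the labels, was hybridised to Affymetrix whole-transcript arrays. The authors deposited a log2 intensity for each of 35512 probe sets on every array. The steps that led to these values (software, background, normalization) were not given in the sources used here. Precision is set by the number of arrays, since intensities hold no read depth. The platform's gene table gave 1 gene for 21789 probe sets and several for 1621, and did not list 12102. Each of the 19938 genes was read from its brightest probe set by mean level.

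The 5 group means were estimated from the 17 arrays together in limma 3.58.1 (R 4.3.3) with moderated variances. P-values were adjusted by Benjamini-Hochberg over all genes, and a gene was called at an adjusted p below 0.05. Intervals are 95%. The script was checked on simulated data. Named genes were all members, every called gene of the other selenoprotein list, up to 2 called genes in each direction of each other list by moderated t, and the 5 genes most correlated with Dio1 and with Selenop. The members and lists were chosen with earlier results of these data known. Alternatives were cyclic loess and quantile normalization, the array median as a covariate, a level filter, variance trend, other sample sets and leaving out each array.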

Additional observations from a re-analysis of the deposited data

Results flagged for a closer look

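The difference of Selenop with Rbp2 loss in Men1 knockout islets minus that in RIP-Cre islets was -1.17 on the log2 scale, past the threshold of the interaction term. Selenop was among the members chosen with its levels known, so the value is a description and supports nothing. The call was lost in 9 of the 17 fits that leave out 1 array and once array medians entered the fit, which gave -0.78 for Selenop. None of the 20 checks for an array far from the rest of its group of 4 passed, of which chance passes about 5%.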

How the results depend on the processing

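The normalization of the deposited values is not stated, gene medians differ between groups, and 3 or 4 arrays a group limit the precision. Of 1498 gene and setting pairs, 1295 kept their side of the threshold, 178 lost a call and 25 gained one. No called value changed sign, and 41 values changed sign, all of members not called in either setting. With the array median as a covariate, members called were 0 in place of 3 in Rbp2 RIP-Cre, 0 in place of 4 in Men1 RIP-Cre and 1 in place of 4 in double knockout islets against RIP-Cre, and 0 in place of 1 for the interaction. The other selenoprotein genes called were 0 in place of 3, 0 in place of 7 and 1 in place of 6. In that setting 42, 396 and 280 of all genes were called in these comparisons, in place of 2672, 10660 and 6716. For the interaction 20 of all genes were called, in place of 675. In Rbp2 RIP-Cre islets members called were 6 without the dimmest 25% of genes, 5 with trended robust variances and 6 with wt and RIP-Cre pooled, and the other selenoprotein genes were 6 when pooled and 0 without the 3 control arrays with high medians, a setting chosen after seeing the data. Of all genes, 3070 were called without the dimmest genes, 3077 with trended variances and 6221 when pooled, in place of 2672. Without the 3 control arrays 475 were called. With only the groups compared, members called were 2 in Men1 RIP-Cre islets, and the other selenoprotein genes 0 for double knockout against Rbp2 RIP-Cre islets. Of all genes, 9694 were called in the first of these, in place of 10660, and 185 in the second, in place of 239. For the interaction, members called were 2 with only the groups compared, the replicate block, the filter, trended variances or pooled controls. Members called were 0 without the 3 control arrays. The other selenoprotein genes were 1, 1, 3, 1 and 4 in the first 5 of these settings. In the same order, 1375, 1933, 1400, 1198 and 3256 of all genes were called for the interaction, in place of 675. Without the 3 control arrays 48 were called. Pairs of arrays from different groups were correlated over all genes after the group mean of each gene was removed. In these residual values same-numbered arrays correlated at a median r of 0.01 (10 of 31 pairs over 0.1). Differently numbered ones correlated at -0.005 (21 of 84 pairs). Arrays numbered 3 outside Men1 RIP-Cre correlated at 0.22 to 0.45, and differently numbered arrays reached 0.48. These values do not decide whether the numbers pair the arrays, and the replicate block is given for completeness. Leaving out 1 array gave members called of 2 to 6 (Rbp2 RIP-Cre), 2 to 5 (Men1 RIP-Cre), 2 to 4 (double knockout against RIP-Cre), 1 to 3 (against Men1 RIP-Cre) and 0 to 2 (interaction), and other selenoprotein genes of 0 to 4, 5 to 7, 4 to 7, 0 to 1 (double knockout against Rbp2 RIP-Cre) and 0 to 4 (interaction). Over the same fits, calls among all genes ran over 223 to 3611, 6174 to 11061 and 2371 to 7409 against RIP-Cre. For double knockout islets they ran over 111 to 416 against Men1 RIP-Cre and 109 to 304 against Rbp2 RIP-Cre islets. For the interaction the range was 22 to 2783. Without RIP-Cre array 3, genes called were 223 in Rbp2 RIP-Cre, 6174 in Men1 RIP-Cre and 2371 in double knockout islets against RIP-Cre. The cause was not tested.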
